A study of Mus musculus with 20 samples.

Results

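The genes described here are the 9 that encode the adiponectin receptors and the receptors, substrates and downstream factors of insulin signaling: *Adipor1*, *Adipor2*, *Insr*, *Igf1r*, *Irs1*, *Irs2*, *Pik3r1*, *Foxo1* and *Foxo3*. They were picked by gene name from the 17211 genes measured, and all 9 were present. The set was drawn up with the *Winnie* against C57BL/6 values of these same brains known, so the genotype differences of these 9 genes are given as a description, and nothing is inferred from them. RNA was sequenced from the brains of 10 *Winnie* mice and 10 C57BL/6 mice. *Winnie* mice carry a missense mutation of *Muc2*, the gene for the main mucin of intestinal mucus, and develop chronic colitis without any agent being given. C57BL/6 mice do not carry it and came from the same breeding colony. All mice were 14 weeks old and untreated. Each genotype held 5 samples labelled female and 5 labelled male. *Muc2* is made by goblet cells of the gut, and the RNA came from brain tissue with no cell type separated.

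Adiponectin is a hormone of fat tissue that binds a pair of related membrane receptors, AdipoR1 and AdipoR2. AdipoR1 is best known for activating the kinase AMPK and AdipoR2 for raising the activity of the nuclear receptor PPARα, and both belong to the PAQR family and act on ceramide. The insulin receptor and the IGF1 receptor are tyrosine kinases that phosphorylate the substrates IRS1 and IRS2. The substrates bind the regulatory subunit p85α, encoded by *Pik3r1*, which brings PI3-kinase to the membrane and starts AKT signaling. AKT in turn phosphorylates the FoxO transcription factors and keeps them out of the nucleus. FoxO factors are known to drive *Insr* and *Irs2* when insulin signaling is low, which closes a feedback loop. In the brain these receptors are found on neurons and glia and are known for their part in feeding and energy balance.

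Levels are given in CPM, the reads of a gene per 1000000 reads of the sample. Samples held 16540303 to 23923769 reads, and the 9 genes were covered by 411 to 3064 reads in each brain. Over genes and genotypes the coefficient of variation between brains ran from 2.66% for *Adipor1* in *Winnie* mice, where counting alone would give 2.70%, to 22.7% for *Irs2* in C57BL/6 mice, where counting alone would give 3.05%. For *Insr* in *Winnie* mice these values were 4.05% and 2.80%. The RNA was that of brain, with a summed level of 10 neuron markers of 9272 to 10445 CPM in C57BL/6 and 9337 to 10185 CPM in *Winnie* mice. Of the cerebellar markers, *Pcp2*, *Gabra6*, *Fat2*, *En2* and *Cbln3* were low, with means of 0.751, 0.959, 1.49, 2.22 and 2.23 CPM over the 20 brains. The others, *Cbln1*, *Zic1* and *Calb2*, had means of 33.1, 60.3 and 65.3 CPM. Which parts of the brain the samples held was not tested. The samples were numbered by genotype, with C57BL/6 libraries before *Winnie* libraries, so library order and genotype cannot be told apart. The labelled sex went against *Xist* and *Ddx3y*, the usual female and male transcripts, in 9 of 10 C57BL/6 samples and in 0 of 10 *Winnie* samples. Sex was therefore compared in *Winnie* mice alone. A missense mutation does not show in CPM, so the genotype labels could not be checked in the same way.

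The 250 bases upstream of the RefSeq start are shown for 4 of the genes, because 3 of them hold a match to a motif of the pathway there and *Adipor1* is the receptor to set beside *Adipor2*. *Adipor2* and *Adipor1* are the pair whose mean levels differed in opposite directions, and *Irs1* and *Irs2* are the pair of substrates. Sequences are from RefSeq on GRCm38.p6 and read 5′ to 3′ on the strand of the gene, with a match to a FoxO element (TGTTTAC) or an E-box (CACGTG) in capitals. *Adipor2* lies at chr6:119388735-119388984 on the minus strand, *Adipor1* at chr1:134415128-134415377 on the plus strand, *Irs1* at chr1:82291440-82291689 on the minus strand and *Irs2* at chr8:11008930-11009179 on the minus strand.
Adipor2: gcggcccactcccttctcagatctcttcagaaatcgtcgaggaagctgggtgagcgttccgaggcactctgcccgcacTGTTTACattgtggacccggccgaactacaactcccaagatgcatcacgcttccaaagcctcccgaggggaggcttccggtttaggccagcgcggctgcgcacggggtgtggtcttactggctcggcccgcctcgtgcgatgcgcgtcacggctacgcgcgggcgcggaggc
Adipor1: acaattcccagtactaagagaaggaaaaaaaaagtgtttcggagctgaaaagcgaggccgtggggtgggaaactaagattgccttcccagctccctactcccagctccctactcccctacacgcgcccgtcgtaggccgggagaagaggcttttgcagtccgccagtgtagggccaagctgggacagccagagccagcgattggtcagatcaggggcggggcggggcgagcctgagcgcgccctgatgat
Irs1: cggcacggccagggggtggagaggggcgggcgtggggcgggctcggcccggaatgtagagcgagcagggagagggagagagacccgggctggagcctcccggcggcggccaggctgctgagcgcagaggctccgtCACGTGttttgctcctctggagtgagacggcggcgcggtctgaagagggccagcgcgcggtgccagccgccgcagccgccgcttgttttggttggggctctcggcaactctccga
Irs2: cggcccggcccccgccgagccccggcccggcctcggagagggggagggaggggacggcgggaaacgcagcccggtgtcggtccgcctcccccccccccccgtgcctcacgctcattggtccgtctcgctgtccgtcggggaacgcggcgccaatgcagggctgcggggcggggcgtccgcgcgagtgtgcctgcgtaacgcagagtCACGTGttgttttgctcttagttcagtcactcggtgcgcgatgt

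In *Adipor2* the FoxO element began 172 bases before the start, which lies inside the gene as GENCODE bounds it, downstream of its outermost start. A second *Adipor1* start in RefSeq had the same element on the other strand, at base 37 counted from that start, and no match upstream of it. The E-box began 115 bases before the start of *Irs1* and 44 bases before that of *Irs2*. Both strands were searched from 250 bases before to 50 bases after the start. RefSeq promoters matched 8 of the 9 genes, all but *Insr*. Of 32544 promoters of this length, 3.66% held TGTTTAC and 7.17% held CACGTG, which reads the same on both strands. A cAMP response element (TGACGTCA) was present in 1.80% of all promoters and in no window of the 8 genes. Such matches are a description of the letters and do not show binding.

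Both adiponectin receptors were expressed in every brain, and their mean levels differed between the genotypes in opposite directions. *Adipor2* (chr6:119353150-119417704, minus strand, GRCm38) ranged from 55.8 CPM over a median of 64.6 to 84.1 CPM in C57BL/6 brains and from 72.5 over 82.1 to 98.2 CPM in *Winnie* brains. All 10 *Winnie* brains lay above the C57BL/6 median and 5 of 10 lay above every C57BL/6 brain. The means were 65.2 ± 7.95 and 83.7 ± 8.08 CPM (SD, n = 10 each), which is a log2 fold change of 0.36 (SE 0.0607, 95% confidence interval 0.24 to 0.48), or 1.28-fold. The overlap came from C57BL/6 replicate 1 at 84.1 CPM. Without it the C57BL/6 brains ended at 69.6 CPM, below the lowest *Winnie* brain. Replicate 1 was singled out by its value in a gene chosen on this contrast, so nothing is read from that separation.

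*Adipor1* (chr1:134415378-134433351, plus strand) ranged from 73.0 over 77.5 to 84.5 CPM in C57BL/6 and from 69.2 over 72.9 to 75.1 CPM in *Winnie* brains. All 10 *Winnie* brains lay below the C57BL/6 median, although the ranges overlapped. The means were 78.0 ± 3.65 and 72.7 ± 1.94 CPM (SD, n = 10 each), and the log2 fold change was -0.10 (SE 0.0333, interval -0.17 to -0.03). C57BL/6 replicate 1, the brain with the most *Adipor2* of its genotype, also had the least *Adipor1* of its genotype.

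Per kilobase of exon, the ratio of *Adipor2* to *Adipor1* was 0.705 ± 0.104 in C57BL/6 and 0.967 ± 0.0968 in *Winnie* mice (SD, n = 10 each). It ran from 0.593 to 0.967 in C57BL/6 brains and from 0.870 to 1.16 in *Winnie* brains. *Adipor1* was thus the more abundant receptor per length in every C57BL/6 brain, and the pair were near parity in *Winnie* brains. Across the 20 brains, with each genotype set to its own mean, the levels of both receptors had an r of -0.17 (rho -0.01), which did not pass a permutation test (p = 0.520, adjusted over 36 pairs of genes p = 0.666).

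**Figure D1:**
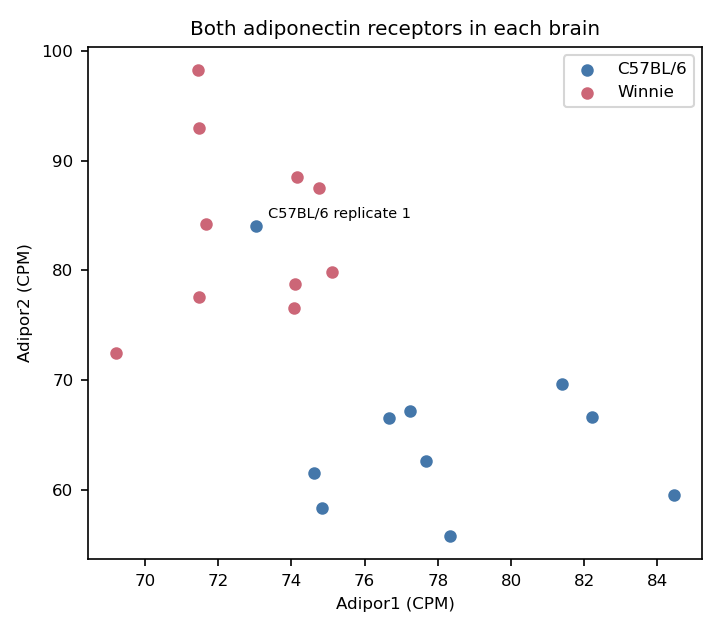
Level of *Adipor2* (CPM) against *Adipor1* (CPM) in each of the 20 brains, with 1 point per brain coloured by genotype. The *Winnie* brains sit at the upper left, and the C57BL/6 brain among them is replicate 1, with 73.0 CPM of *Adipor1* and 84.1 CPM of *Adipor2*.

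Both receptor tyrosine kinases were higher in the mean in *Winnie* brains. *Insr*, the insulin receptor (chr8:3122061-3279617, minus strand), ranged from 50.2 over 61.5 to 69.4 CPM in C57BL/6 and from 62.8 over 68.3 to 71.3 CPM in *Winnie* brains. All 10 *Winnie* brains were above the C57BL/6 median and 3 of 10 above every C57BL/6 brain. The means were 60.5 ± 5.85 and 67.8 ± 2.75 CPM (SD, n = 10 each), a log2 fold change of 0.17 (SE 0.0468, interval 0.07 to 0.26). *Igf1r*, the IGF1 receptor (chr7:67952827-68233668, plus strand), ranged from 26.0 over 30.6 to 38.2 CPM in C57BL/6 and from 32.4 over 36.025 to 41.7 CPM in *Winnie* brains. Here too all 10 *Winnie* brains were above the C57BL/6 median and 3 of 10 above the C57BL/6 range. The means were 31.0 ± 4.22 and 36.2 ± 2.95 CPM (SD, n = 10 each), a log2 fold change of 0.23 (SE 0.0635, interval 0.10 to 0.36). The ratio of *Insr* to *Igf1r* per kilobase was 2.41 ± 0.271 in C57BL/6 and 2.30 ± 0.198 in *Winnie* brains (SD, n = 10 each). It ran from 1.93 to 2.87 and from 1.93 to 2.56, so the genotypes overlapped.

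The receptor substrates showed more spread between mice than difference between genotypes. *Irs2* (chr8:10984681-11008458, minus strand), the substrate best known from liver and hypothalamus, ranged from 46.1 over 56.3 to 87.4 CPM in C57BL/6 and from 55.3 over 67.3 to 84.1 CPM in *Winnie* brains. The highest brain of all was C57BL/6 replicate 1, without which that genotype ended at 68.2 CPM. The means were 58.7 ± 13.3 and 67.6 ± 9.21 CPM (SD, n = 10 each), and the interval of the log2 fold change of 0.22 (SE 0.112) ran from -0.01 to 0.46. *Irs1* (chr1:82233101-82291416, minus strand) ranged from 21.8 over 26.1 to 31.2 CPM in C57BL/6 and from 24.02 over 26.8 to 28.7 CPM in *Winnie* brains. All *Winnie* brains lay within the C57BL/6 range, with means of 26.4 ± 2.96 and 26.6 ± 1.52 CPM (SD, n = 10 each), and the log2 fold change was 0.02 (SE 0.0551, interval -0.09 to 0.13).

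*Pik3r1*, which encodes the p85α subunit (chr13:101680563-101768217, minus strand), had the highest CPM of the 9 genes. It ranged from 128 over 136 to 144 CPM in C57BL/6 and from 128 over 138 to 157 CPM in *Winnie* brains, and its log2 fold change was 0.05 (SE 0.0380). Its interval, -0.03 to 0.13, included 0.

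The FoxO factors had smaller differences than the receptors *Adipor2* and *Igf1r*. *Foxo3* (chr10:42181841-42276755, minus strand) ranged from 95.2 over 103.7 to 116 CPM in C57BL/6 and from 106 over 112 to 122 CPM in *Winnie* brains. All 10 *Winnie* brains were above the C57BL/6 median, with a log2 fold change of 0.12 (SE 0.0371, interval 0.04 to 0.19). *Foxo1* (chr3:52268336-52353221, plus strand) ranged from 43.3 over 48.4 to 52.8 CPM in C57BL/6 and from 44.4 over 48.5 to 61.1 CPM in *Winnie* brains, and 5 of 10 *Winnie* brains were above the C57BL/6 median. Its log2 fold change was 0.04 (SE 0.0531, interval -0.07 to 0.15). In these bulk samples, less RNA of a gene per cell and fewer cells that express it cannot be told apart. Other genes lie on the opposite strand within the bounds of *Insr*, *Irs1*, *Irs2* and *Foxo1*, and the strand setting of the counting is not given in the sources used here, so reads of these partners may be included. *Pik3r1* and *Foxo1* also overlap other genes on their own strand, where reads may be shared whatever that setting was.

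**Figure D2:**
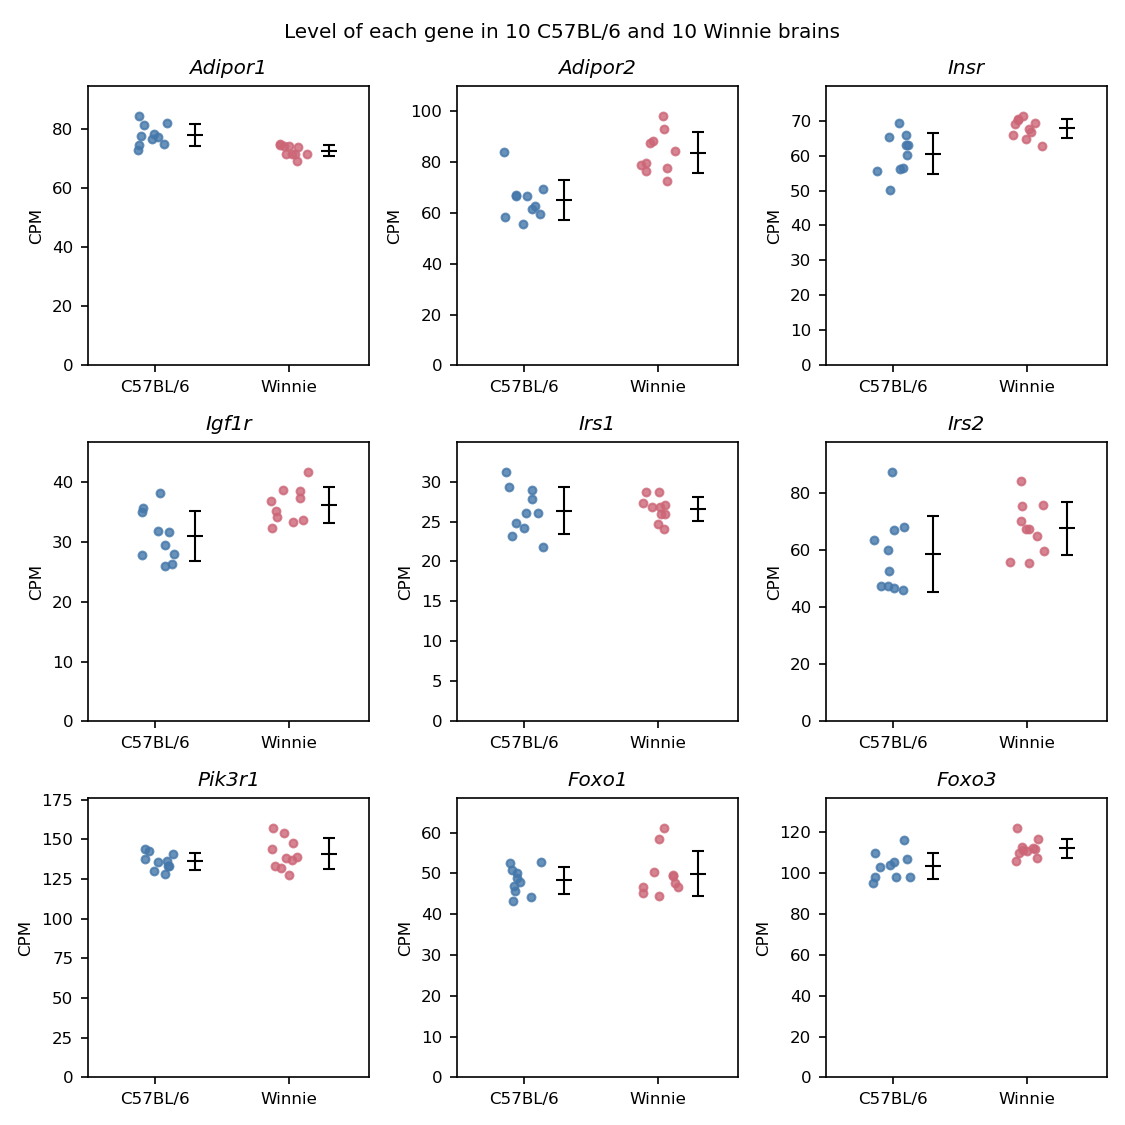
Level (CPM, axes from 0) of each of the 9 genes in the 10 C57BL/6 and 10 *Winnie* brains, with 1 point per brain and bars for the mean ± SD. All 10 *Winnie* brains lie above the C57BL/6 median for *Adipor2*, *Insr*, *Igf1r* and *Foxo3*, and all 10 lie below it for *Adipor1*.

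Of the 9 genes, 8 had a higher and 1 a lower mean log2 level in *Winnie* mice, and the median log2 fold change was 0.12, against 0.0022 over all genes. At a limma FDR under 0.05, 2 of the 9, *Adipor2* (FDR 0.00316) and *Insr* (FDR 0.0480), were called, both higher. *Adipor1* was not called (FDR 0.0968). Over 20 fits that each left out a library, the FDR ran from 0.000352 to 0.00916 for *Adipor2* and from 0.0210 to 0.104 for *Insr*. The call of *Insr* was lost with labelled sex as a covariate (FDR 0.0517) and with a correction for length and GC content (FDR 0.140), but held with edgeR (FDR 0.0330). Over all 17211 genes, 1.52% were called higher, 1.01% lower and 2.52% in either direction. Since the 9 genes were selected on this contrast, nothing is read from their count. The study set a stricter limit, an FDR below 0.001 together with a 1.5-fold change. It applied this limit with edgeR and counted 8 C57BL/6 and 6 *Winnie* brains. It reported differing brain genes of tryptophan and nicotinamide metabolism. With limma on the 20 samples used here, 0% of all genes passed these thresholds (0 of 17211, with 3030 at an unadjusted limma p under 0.05). No edgeR count at this limit is given here, so the limma count does not test the genes reported by the study.

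Differences between the genotypes moved with gene length. Genes were put in 4 equal bins by exon length, and the median log2 fold change went from -0.04 in the bin of the shortest genes over -0.02 and 0.01 to 0.04 in that of the longest. In the shortest bin 20 genes were called higher and 75 lower, and in the longest 149 higher and 13 lower. *Adipor1*, *Adipor2* and *Irs2* belong to the third bin and the other 6 genes to the longest. After a correction for length and GC content within each sample, which was added after the data were seen, *Adipor2* was at 0.33 and *Adipor1* at -0.12. *Irs2* was at 0.19, *Igf1r* at 0.15, *Insr* at 0.10 and *Foxo3* at 0.07. *Pik3r1*, *Foxo1* and *Irs1* were then at -0.00, -0.01 and -0.03.

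**Figure D3:**
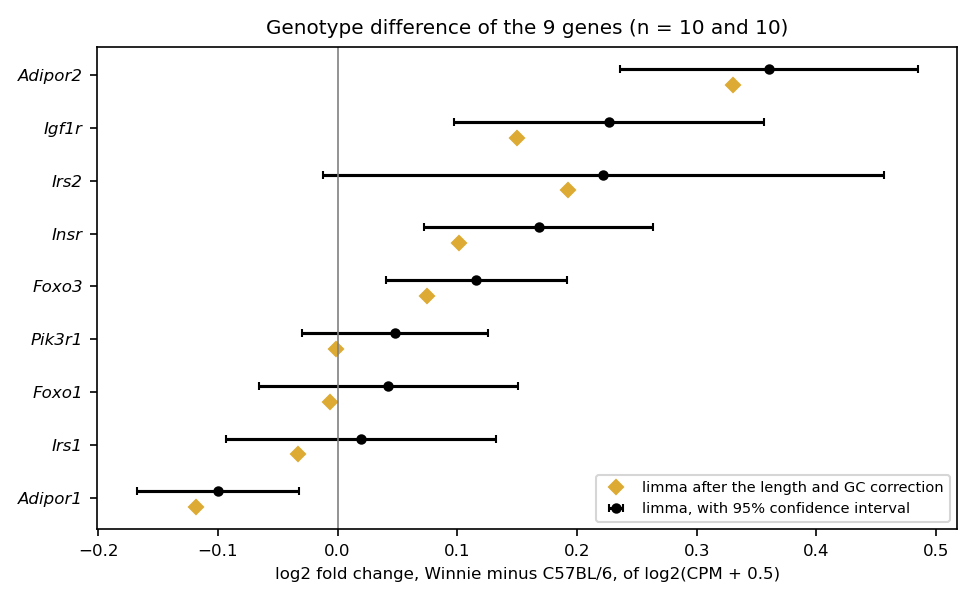
Log2 fold change (*Winnie* minus C57BL/6, on log2(CPM + 0.5), n = 10 and 10) of the 9 genes, with black points and bars for the limma estimate and its 95% confidence interval and diamonds for the estimate after the length and GC correction. *Adipor2* is at 0.36 and then 0.33, whereas *Insr* goes from 0.17 to 0.10.

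To compare the genes with each other, CPM was divided by the exon length of each gene in kilobases. In C57BL/6 brains *Adipor1* was the highest at 15.5 ± 0.726 CPM per kilobase (SD, n = 10). It was followed by *Foxo3* at 13.7 ± 0.851 and *Pik3r1* at 13.5 ± 0.528, which did not differ beyond their spread (higher *Foxo3* in 5 of 10 brains, exact paired permutation test, adjusted p = 0.598). *Adipor2* followed at 10.9 ± 1.33 and *Irs2* at 9.28 ± 2.11 CPM per kilobase. The lower levels were those of *Foxo1* at 5.58 ± 0.383, *Insr* at 4.401 ± 0.425, *Irs1* at 2.88 ± 0.323 and *Igf1r* at 1.85 ± 0.251 CPM per kilobase. The other 7 of 8 neighbouring pairs in this order passed the exact two-sided test, with adjusted p of 0.00312 to 0.00446 over the 8 pairs. The order depends on the length used, since with the longest transcript *Pik3r1* and *Adipor2* came before *Foxo3*, *Insr* came before *Foxo1*, and 6 of 8 pairs passed. *Irs2* was 3.24 ± 0.722 times as abundant per kilobase as *Irs1* in C57BL/6 and 3.69 ± 0.575 times in *Winnie* brains (SD, n = 10 each). The ratio of *Foxo3* to *Foxo1* was 2.46 ± 0.229 and 2.59 ± 0.257.

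The labelled sexes were compared within *Winnie* mice, a contrast not used to choose the genes. The libraries of the labelled females were numbered before those of the labelled males, so library order and labelled sex cannot be told apart here. At a limma FDR under 0.05, 0 of the 9 genes differed between 5 labelled females and 5 labelled males, and 0.116% of all genes did (20 of 17211). edgeR on the recovered reads also called 0 of the 9. One gene, *Irs2*, had an unadjusted p under 0.05. *Irs2* was at 67.3, 70.3, 75.4, 75.7 and 84.1 CPM in the labelled females and at 55.3, 55.9, 59.7, 64.9 and 67.3 CPM in the labelled males. The groups met at 67.3 CPM, with the lowest labelled female at 67.307 and the highest labelled male at 67.289 CPM. This gap is smaller than 1 read, which was 0.0523 CPM in that female and 0.0537 CPM in that male, so nothing is read from it. The means were 74.6 ± 6.41 and 60.6 ± 5.32 CPM (SD, n = 5 each). The log2 fold change, male minus female, was -0.30 (SE 0.0678, limma FDR 0.0929). An exact permutation test of *Irs2* alone gave the smallest p this design allows (p = 0.00794, adjusted over the 9 genes p = 0.0714). Over 10 fits that each left out a library, the limma FDR of *Irs2* ran from 0.0492 to 0.218. The lowest value came without *Winnie* replicate 5, the labelled female with 67.3 CPM, and no other fit gave an FDR under 0.05. For *Adipor2* the labelled females ranged from 76.6 to 93.0 CPM and the labelled males from 72.5 to 98.2 CPM, and the interval of the log2 difference was -0.18 to 0.13. The intervals of the other 7 genes also included 0.

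Levels of the 9 genes were also compared with each other and with 11 marker lists of brain cell types and regions across the 20 brains, after setting each genotype to its own mean. Of 36 pairs among the genes, 0 passed a permutation test at an adjusted p under 0.05. The most negative was *Adipor1* with *Irs1* (r = -0.66, rho = -0.41, adjusted p = 0.111), and it rested on C57BL/6 brains, with an r of -0.89 there and 0.11 in *Winnie* brains, and the pooled r was -0.46 without the 2 brains farthest from the median of *Adipor1*. Of 99 relations between a gene and a marker list, 3 passed for Pearson's r.

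*Irs1* and *Foxo1* moved with markers of striatum, in opposite directions. The summed level of 8 striatal markers ran from 279 to 1015 CPM in C57BL/6 and from 258 to 999 CPM in *Winnie* brains. *Irs1* was lower where striatal markers were higher (r = -0.75, p = 0.00016, adjusted p = 0.00792; rho = -0.77, p = 0.00034, adjusted p = 0.0337). The r of *Irs1* was -0.80 within C57BL/6 and -0.79 within *Winnie* brains, and -0.71 without the 2 brains farthest from the median. *Foxo1* was higher where striatal markers were higher (r = 0.72, p = 0.00034, adjusted p = 0.0112; rho = 0.68, p = 0.00174, adjusted p = 0.0832). The r of *Foxo1* was 0.82 within C57BL/6 and 0.69 within *Winnie* brains, and 0.61 without the 2 farthest brains. The striatal score had a gap that left 12 brains below and 8 above it. Below the gap r was -0.42 for *Irs1* and 0.24 for *Foxo1*, and above it -0.51 and 0.68, which was not tested, so the pooled relations rest in part on the distance between these sets. No striatal marker was called between the genotypes (0 of 8), and 0 had an unadjusted p under 0.05. All 8 had a negative log2 fold change, with a median of -0.21.

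*Igf1r* was higher where a list of 7 fibroblast markers was higher (r = 0.80, p = 6e-05, adjusted p = 0.00594; rho = 0.65, p = 0.00336, adjusted p = 0.0832). The r was 0.82 within C57BL/6 and 0.75 within *Winnie* brains, and 0.69 without the 2 farthest brains. This list holds *Igf2*, a ligand of the IGF1 receptor. Its summed level was 137 to 199 CPM in C57BL/6 and 146 to 206 CPM in *Winnie* brains, with 0 of 7 called. Its part in the higher *Igf1r* of *Winnie* brains was not tested. Among the markers of all 11 lists, only *Gjb6* of the astrocyte list (log2 fold change 0.22) and *Cldn5* of the endothelial list (log2 fold change -0.47) were called. Of the 9 astrocyte markers 5 were higher and 4 lower, among the latter *Aqp4* at -0.16 and *Sox9* at -0.17, and the list summed to 4649 to 5366 CPM in C57BL/6 and 4707 to 5396 CPM in *Winnie* brains. Of the 8 endothelial markers 5 were higher and 3 lower, with *Slco1a4* at 0.34, and the list summed to 170 to 240 CPM and 188 to 227 CPM. Other lists were more one-sided. Lower in *Winnie* mice were 8 of 9 microglial markers (3 at an unadjusted p under 0.05), 8 of 9 oligodendrocyte markers, 7 of 8 of choroid plexus and 5 of 5 of blood. So were 7 of 10 neuron and 5 of 8 cerebellar markers, whereas 5 of 7 hypothalamic and 4 of 7 fibroblast markers were higher. The part of these cell types and regions in the levels of the 9 genes was not tested.

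**Figure D4:**
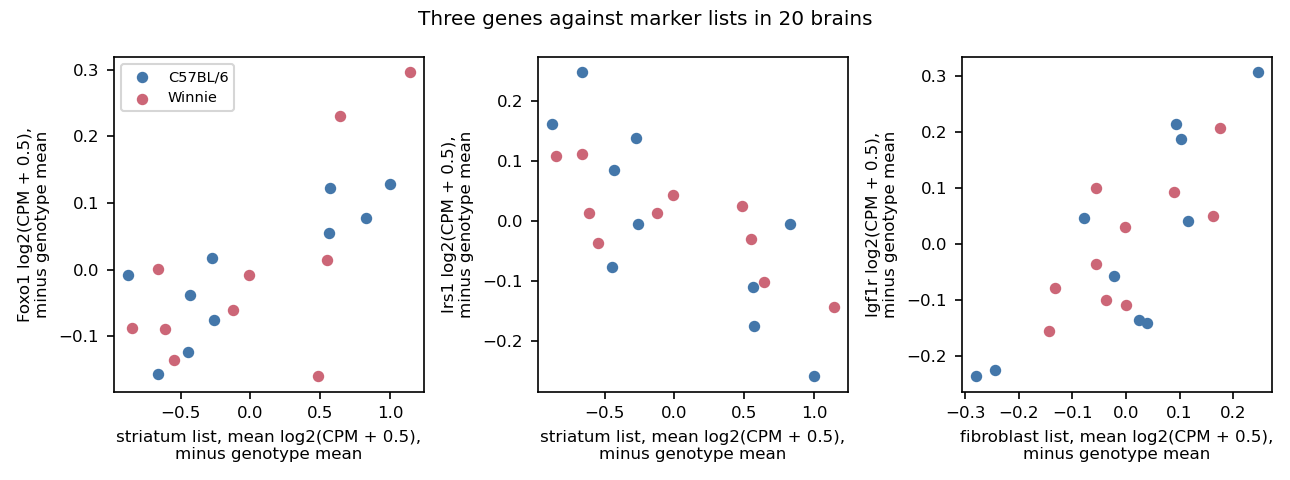
Level of *Foxo1*, *Irs1* and *Igf1r* against the mean level of a marker list in each of 20 brains, both as log2(CPM + 0.5) minus the mean of the genotype. *Foxo1* has an r of 0.72 and *Irs1* of -0.75 with the striatal list, and *Igf1r* has 0.80 with the fibroblast list.

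For each gene the most similar of 15158 genes across the 20 brains, up to 3, were listed, as a description without a p. *Adipor2* was most like *Tsc22d3*, a glucocorticoid-induced gene, with an r of 0.87 (0.93 within C57BL/6 and 0.80 within *Winnie* brains), followed by a gene named only by its clone at 0.86 and *Rin2* at 0.83. *Irs2* was most like *Dusp4*, a phosphatase of MAP kinases, at 0.90 (0.91 in each genotype), followed by *Arl5b* at 0.89 and *Fam46a* at 0.88. *Insr* was most like *Usp34* at 0.85, *Kif1b* at 0.84 and *Rictor*, a subunit of mTOR complex 2, at 0.84. *Foxo1* was most like *Sertad2* at 0.85, *Slc1a3* at 0.84 and *Laptm5* at 0.84. *Igf1r* was most like *Tnrc6b* at 0.84, *Nid1* at 0.84 and *Zfp462* at 0.83. *Irs1* was most like *Thsd4* at 0.81, *Dock9* at 0.80 and *A530058N18Rik* at 0.78, and *Pik3r1* was most like *Etaa1* at 0.80, *L3mbtl3* at 0.77 and *Nrip1* at 0.77. Some of these values differed between the genotypes, with 0.21 within C57BL/6 and 0.96 within *Winnie* brains for *L3mbtl3*, 0.94 and 0.53 for *Zfp462*, and 0.92 and 0.51 for *Thsd4*. The lowest values were those of *Adipor1*, with *Dnal4* at 0.72, *Gskip* at 0.69 and *Mrps33* at 0.69, and of *Foxo3*, with *Rrp8* at 0.70 (0.83 within C57BL/6 and 0.43 within *Winnie* brains) and *Soga3* at 0.69.

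The rest of the pathway was read from 10 lists of 114 genes, of which 106 were measured. Of these 106, 7 were called at a limma FDR under 0.05, all higher in *Winnie* mice, against 1.52% of all genes in that direction. The median log2 fold change over the 106 genes was 0.04, with 68 higher and 38 lower, and nothing particular to the pathway is read from these counts.

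In the mTOR arm 2 of 13 genes were called higher. *Mtor*, the kinase of both mTOR complexes, was at 113.7 to 127.18 CPM in C57BL/6 and 127.23 to 149 CPM in *Winnie* brains (log2 fold change 0.16, SE 0.0344, limma FDR 0.0157). The ranges nearly met, and counting alone would give a coefficient of variation of 2.08% in C57BL/6 and 1.98% in *Winnie* brains. Nothing is read from the gap. *Mtor* was called without any single library, but not after the length and GC correction (log2 fold change 0.10, limma FDR 0.0788). *Tsc2*, which restrains mTOR complex 1, rose by 0.11 on the log2 scale (SE 0.0292, limma FDR 0.0360), and its call was lost in 10 of the 20 fits that left out a library, with an FDR of up to 0.0780. After the length and GC correction *Tsc2* was at 0.06 (limma FDR 0.277). *Ddit4*, an inhibitor of mTOR complex 1, had the largest log2 fold change of the list, 0.25 (limma FDR 0.361), and *Akt1s1* the lowest, -0.06 (limma FDR 0.414).

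Among adaptors and inhibitors at the receptor, 2 of 16 were called higher. *Sos1*, a Ras exchange factor recruited by GRB2, was at 77.5 to 96.6 CPM in C57BL/6 and 90.0 to 108 CPM in *Winnie* brains (log2 fold change 0.17, SE 0.0414, limma FDR 0.0226). *Sos1* lost its call without C57BL/6 replicate 5 or *Winnie* replicate 3, with an FDR of up to 0.0552. *Sh2b2*, an adaptor of the insulin receptor, was at 5.42 to 8.06 CPM and 7.20 to 9.98 CPM (log2 fold change 0.27, SE 0.0742, limma FDR 0.0455), and its call was lost in 16 of 20 such fits, with an FDR of up to 0.0848. *Irs4* had the largest log2 fold change at 0.35 (limma FDR 0.412) and *Socs1*, an inhibitor of cytokine and insulin signaling, the lowest at -0.25 (limma FDR 0.364).

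Of the other PAQR family genes 1 of 9 was called higher. *Paqr5*, a membrane progestin receptor related to the adiponectin receptors, was at 2.63 to 5.66 CPM in C57BL/6 and 4.37 to 7.70 CPM in *Winnie* brains, from as few as 51 reads (log2 fold change 0.45, SE 0.109, limma FDR 0.0255). *Paqr5* lost its call without C57BL/6 replicate 5 or *Winnie* replicate 8, with an FDR of up to 0.0552. *Paqr4* was at -0.13 (limma FDR 0.0589).

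The outputs of AdipoR2 and AdipoR1 had 1 of 8 genes called. *Ppargc1a*, a coactivator of mitochondrial genes, was at 52.8 to 63.3 CPM and 58.4 to 76.9 CPM (log2 fold change 0.17, SE 0.0449, limma FDR 0.0429). Its call was lost in 13 of 20 fits that left out a library, with an FDR of up to 0.0953. *Ppara* itself was low, at 1.34 to 2.75 CPM in C57BL/6 and 2.08 to 3.16 CPM in *Winnie* brains (log2 fold change 0.35, limma FDR 0.0663). The log2 fold changes of the 8 genes were positive, from 0.03 for *Cpt1c* to that of *Ppara*, where 8774 of all 17211 genes were positive. After the length and GC correction *Acaca* was at -0.02 and *Cpt1c* at 0.0084, so 7 of 8 were positive. AMPK and its kinases had 0 of 11 called, from -0.11 for *Camkk2* (limma FDR 0.314) to 0.11 for *Prkaa1* (limma FDR 0.188), with 2 of them at an unadjusted p under 0.05.

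Of the FoxO target genes 1 of 17 was called higher. *Klf15*, a metabolic transcription factor, was at 15.6 to 27.3 CPM in C57BL/6 and 19.5 to 29.2 CPM in *Winnie* brains (log2 fold change 0.39, SE 0.0888, limma FDR 0.0200). *Klf15* was called without any single library, and its highest C57BL/6 brain was again replicate 1. *Txnip*, an inhibitor of glucose uptake, was at 15.1 to 24.1 CPM and 15.8 to 35.0 CPM (log2 fold change 0.42, limma FDR 0.112). *Fbxo32*, a ubiquitin ligase of muscle wasting, was at -0.18 (limma FDR 0.0958). The list had 9 genes higher and 8 lower, with a median of 0.00. The other FoxO genes, *Foxo4* and *Foxo6*, were at -0.13 (limma FDR 0.207) and -0.03 (limma FDR 0.917).

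Ligands and binding proteins had 0 of 10 genes called, with 3 at an unadjusted p under 0.05. *Igf1* was at 13.3 ± 1.26 CPM in C57BL/6 and 14.6 ± 1.55 CPM in *Winnie* brains (SD, n = 10 each; log2 fold change 0.13, limma FDR 0.273), *Igf2* at 0.03 (limma FDR 0.920) and *Igfbp2* at -0.11 (limma FDR 0.396). The list ran from *Igfbp6* at -0.19 (limma FDR 0.261) to *Insrr*, a receptor related to *Insr*, at 0.23 (limma FDR 0.361) on 0.231 to 0.965 CPM. *Adipoq*, *Ins1*, *Ins2* and *Igfbp1* were not analysed here. Partners of the adiponectin receptors had 0 of 3 called and 0 at an unadjusted p under 0.05, with the adaptor *Appl1* at 0.02 (limma FDR 0.876), *Appl2* at 0.08 (limma FDR 0.519) and the adiponectin-binding cadherin *Cdh13* at 0.05 (limma FDR 0.635). After the length and GC correction 3 of the 106 genes were called. *Klf15* and *Paqr5* were higher in *Winnie* mice, and *Akt2* was lower (corrected log2 fold change -0.21, limma FDR 0.0351). Besides *Mtor* and *Tsc2*, the calls of *Sos1* (limma FDR 0.0653), *Sh2b2* (0.0816) and *Ppargc1a* (0.0528) were lost with it.

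**Figure D5:**
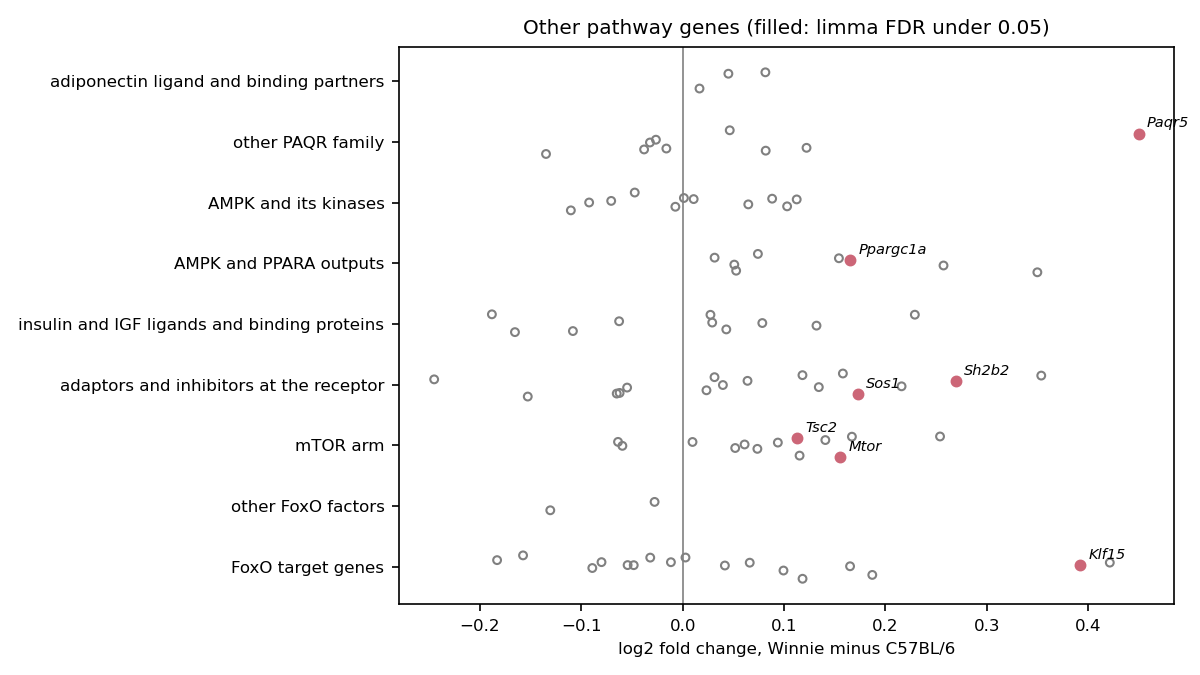
Log2 fold change (*Winnie* minus C57BL/6) of 89 measured pathway genes, with 1 point per gene in 9 of the lists and filled points for a limma FDR under 0.05. The 7 filled points are all to the right of 0, from *Tsc2* at 0.11 to *Paqr5* at 0.45.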

How the data were processed

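Brain RNA from 10 C57BL/6 and 10 *Winnie* mice was sequenced as paired reads of 100 bases. The authors processed the reads with RNAsik 1.5.4 on GRCm38 and counted them per gene with featureCounts, and they deposited CPM values. The aligner and the strand setting are not given in the sources used here. Every value was a whole number of reads of its sample (100% within 0.0006 CPM), so reads were recovered for the alternatives with edgeR 4.0.16 and DESeq2 1.42.0. The study's text counts 8 C57BL/6 and 6 *Winnie* brains, and all 20 labelled samples were used here.

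R 4.3.3 and limma 3.58.1 were used for the genotype contrast. The log2(CPM + 0.5) values were fitted with eBayes (mean-variance trend, robust) and Benjamini-Hochberg adjustment over 17211 genes (FDR). This was chosen instead of the edgeR test of the study because the values are CPM. A fold change on this scale understates low genes. Permutation tests (Python 3.11.15, numpy 2.4.6, pandas 2.3.3) were two-sided, with 100000 resamples for correlations, drawn within genotype, and exact otherwise. Each sample came from the brain of 1 mouse, excised after euthanasia. The sources used here do not say whether RNA was taken from the whole brain or a part of it. The p-values measure the spread between these samples. Coordinates and lengths are from GENCODE M21, which matched 17128 genes. The fits were tested on simulated data.

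The 9 genes and all lists were chosen with earlier results of these data known. Named were the 9 genes, pathway genes at an FDR under 0.05, the highest and lowest log2 fold change of each list, *Cdh13*, *Appl1*, *Igf1*, *Igf2*, *Igfbp2*, the 3 most similar genes (mean of at least 1 CPM) of each of the 9, *Xist* and *Ddx3y*. *Rictor*, *Gjb6*, *Aqp4*, *Sox9*, *Cldn5*, *Slco1a4* and *Acaca* were added after their values were seen, of which *Rictor* is also among the similar genes. The 8 cerebellar markers were also named after their values were seen. Alternatives were pseudocounts of 0.1 and 1, a mean of at least 1 CPM, median-ratio scaling, quantile normalization, labelled sex or *Ddx3y* as a covariate, a replicate block, both count tests and each library left out. One pathway list and 1 similar gene are not reported here. The length and GC correction was added after seeing the data.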

Additional observations from a re-analysis of the deposited data

Results flagged for a closer look

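In groups of 4 to 10 samples, the highest and lowest sample were compared with the rest by Dixon's test, which by chance marks about 1 in 20 groups, and 50 groups were tested. *Adipor2* was at 84.1 CPM in C57BL/6 replicate 1, far from the next C57BL/6 brain at 69.6 CPM. *Klf15* was at 27.3 CPM in the same brain, and the next C57BL/6 brain was at 19.2 CPM. *Foxo1* was at 58.4 CPM in *Winnie* replicate 9, and the next of the 5 labelled males was at 49.7 CPM. Without C57BL/6 replicate 1, *Klf15* was still called between the genotypes.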

How the results depend on the processing

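Over all genes 434 were called, 227 with a replicate block, 977 with DESeq2 and 169 to 694 when 1 library was left out. Of the 9 genes, 2 were called, 1 with labelled sex as a covariate, with a replicate block or with the length and GC correction, 4 with DESeq2 and 1 to 3 when 1 library was left out. Of the 106 pathway genes, 7 were called, 3 with a replicate block (*Mtor*, *Klf15* and *Paqr5*), 3 with the length and GC correction, 13 with DESeq2 and 2 to 12 when 1 library was left out, with 2 without C57BL/6 replicate 5 and 12 without C57BL/6 replicate 1. The replicate numbers did not pair the samples, since same-numbered samples correlated at -0.293 to 0.151, with 2 of 10 pairs over 0.1 and 1 of 10 highest with its own number. With the length and GC correction the log2 fold change turned negative for *Irs1* (-0.033), *Pik3r1* (-0.0012) and *Foxo1* (-0.0064). When 1 library was left out *Irs1* ran from -0.0094 to 0.047. Between labelled sexes in *Winnie* mice, 20 genes were called, 12 to 67 when 1 library was left out, and 0 to 1 of the 9 genes. The log2 difference there changed sign for *Foxo1* with edgeR (-0.0025), and when 1 library was left out it ran from -0.028 to 0.0017 for *Adipor1*, -0.085 to 0.024 for *Adipor2*, -0.065 to 0.0084 for *Pik3r1*, -0.037 to 0.095 for *Foxo1* and -0.036 to 0.014 for *Foxo3*. The causes were not tested. Counting error matched the spread of *Adipor1* in *Winnie* mice, and *Insrr* and *Socs1* had as few as 4 reads in a brain.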
